A study of Mus musculus with 12 samples.

Results

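The cartilage regulators Sox5, Sox6 and Sox9 and the cartilage matrix genes Acan, Hapln1, Matn3, Chad, Prg4, Cilp and Cilp2 were followed in single tendon cells. These 10 genes were chosen by symbol and all 10 were present among the 55418 gene symbols of the count table. Of the 10, 8 had at least 20 counts over the 12 cells, and the same number had at least 10 counts in some cell. Sox6 and Matn3 had 0 counts in every cell.

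Single GFP-positive cells were picked from non-injured, untreated Achilles tendons of mice after collagenase digestion. There were 6 cells of Tnmd-/- ScxGFP+ mice and 6 cells of Tnmd WT ScxGFP+ mice, all on a C57BL/6 background by the labels and C57BL/6 J by the methods. Tnmd codes for tenomodulin, a membrane glycoprotein of tendons and ligaments, and ScxGFP is a fluorescent reporter driven by regulatory sequence of the tendon transcription factor Scx, carried by both genotypes. The Tnmd deletion is constitutive and present in all cells of the mutant. Because the gene lies on the X chromosome, the study's WT animals comprised hemizygous males and homozygous or heterozygous females. The methods give an age of 6 months for the operated animals and state none for the non-injured animals of these cells. The labels name neither an age nor an animal for a cell. Each genotype therefore counted as 1 sample, genotypes were compared without a test, and values are given with their spread over cells. Cells are named by genotype and the number of the picked cell.

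Chondrocytes are the cells of cartilage. SOX9 is the transcription factor that starts and maintains their programme, and SOX5 and SOX6 act with it at enhancers of cartilage genes such as those of type II collagen and aggrecan. Aggrecan, the Acan product, is a large proteoglycan that binds hyaluronan, and the link protein coded by Hapln1 holds the pair together, giving cartilage its water-rich, compression-resistant matrix. In tendon, cells with such features are known from the fibrocartilage near the bone insertion and from regions under compression.

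RefSeq promoter windows of the GRCm38.p6 build, running from 250 bases before to 50 bases after the annotated start, were found for 8 of the 10 genes. They are shown for 4 genes that were distributed differently over the cells: Acan and Hapln1, seen together in few cells, Chad, seen in all, and Cilp, at a high level in WT cells only. Capitals mark the letters TATAAA on the strand shown, and all 4 genes lie on the plus strand. The Acan window is chr7:79052976-79053275, that of Hapln1 is chr13:89540386-89540685, that of Chad is chr11:94564797-94565096 and that of Cilp is chr9:65264930-65265229.
Acan: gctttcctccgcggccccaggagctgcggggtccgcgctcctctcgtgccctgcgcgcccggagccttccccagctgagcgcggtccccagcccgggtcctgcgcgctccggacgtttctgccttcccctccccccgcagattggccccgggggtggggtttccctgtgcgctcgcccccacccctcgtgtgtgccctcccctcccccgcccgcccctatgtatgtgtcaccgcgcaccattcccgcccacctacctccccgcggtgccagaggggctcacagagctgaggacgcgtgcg
Hapln1: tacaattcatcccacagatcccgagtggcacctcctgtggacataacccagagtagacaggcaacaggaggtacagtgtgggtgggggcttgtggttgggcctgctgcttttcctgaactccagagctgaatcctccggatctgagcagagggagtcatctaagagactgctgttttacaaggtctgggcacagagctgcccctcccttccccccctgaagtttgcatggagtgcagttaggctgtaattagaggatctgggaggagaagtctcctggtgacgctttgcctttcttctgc
Chad: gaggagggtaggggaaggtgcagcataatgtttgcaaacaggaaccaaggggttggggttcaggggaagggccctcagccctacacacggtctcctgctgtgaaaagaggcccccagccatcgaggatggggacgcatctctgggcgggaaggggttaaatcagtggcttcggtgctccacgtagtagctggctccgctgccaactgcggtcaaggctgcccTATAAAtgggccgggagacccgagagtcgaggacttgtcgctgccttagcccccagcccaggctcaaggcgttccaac
Cilp: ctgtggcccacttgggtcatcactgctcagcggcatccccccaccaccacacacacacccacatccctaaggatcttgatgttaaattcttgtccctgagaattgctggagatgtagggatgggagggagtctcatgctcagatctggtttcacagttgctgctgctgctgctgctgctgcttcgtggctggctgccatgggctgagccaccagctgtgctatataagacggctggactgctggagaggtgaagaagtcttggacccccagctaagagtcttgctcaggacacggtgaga
The exact letters TATAAA, a form of the TATA box core, occurred in the Chad window only among these 4, beginning 28 bases before the start. TATAAA was found on the given strand in 8.32% of 32851 promoter windows of the same length. Other forms were not sought, and the Cilp window holds the similar letters tatataag. The SOX core letters ACAAAG or ACAATG, sought on both strands, were in none of the 4 windows and in 28.6% of all windows. Among the other members, the Sox5 window held 1 SOX core match, at 154 bases before the start. Sox6, which has 6 windows, held 10 matches in 5 of them and 1 TATAAA. The Sox5 window, at chr6:143947057-143947356, lies inside the gene model, which begins at 144781977 on the minus strand. The Hapln1 window and most Sox6 windows also lie inside the gene models, so these are windows of internal starts. The Cilp2 and Matn3 windows held neither motif. G and C made up 74.0% of the Acan window, 61.0% of that of Chad, 55.7% of that of Cilp and 54.3% of that of Hapln1, against a median of 52.7% over all windows. These matches describe the letters and no binding was measured.

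The values are raw read counts per gene and cell, divided by the total of the cell and multiplied by 1000000 (CPM, counts scaled to a common depth). Total counts were between 892713 and 10333351 per Tnmd-/- cell and between 4516036 and 13613080 per WT cell, so 3 counts, the limit that a count of 0 allows, correspond to 0.220 to 3.36 CPM depending on the cell. Tnmd-/- cells 3 and 7 were the shallowest, at 1504775 and 892713 counts, and mitochondrial genes took 51.8% of the counts of cell 3 against 1.75% to 7.30% in the other 11 cells. Less degraded by the authors' marking were Tnmd-/- cells 9, 10 and 20 along with WT cells 4, 5 and 10, and the remaining 6 were marked more degraded. Tnmd itself had 8 counts in the Tnmd-/- sum and 10185 in the WT sum, of which 99.9% came from WT cell 14, and the other 5 WT cells had 0 to 7 counts, as low as the Tnmd-/- cells. Scx, the gene behind the reporter, reached 10 counts in 3 WT cells and in 0 Tnmd-/- cells. Dcn and Col1a2, both expressed by tendon fibroblasts, reached it in all 12 cells. Col1a2 did so narrowly in Tnmd-/- cell 10 (10 counts) and in WT cell 2 (11 counts). No other gene of the tendon fibroblast list used below was seen in all cells. For example, Col1a1 reached 10 counts in 1 Tnmd-/- and 4 WT cells, and Kera had 0 counts in every cell.

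Sox9 was the only one of the 3 SOX regulators with counts in many cells. It had at least 10 counts, the level at which a gene is called seen here, in 3 Tnmd-/- and 4 WT cells. In the Tnmd-/- cells the lowest value was 0 CPM, the median 5.36 CPM and the highest 482 CPM, and in the WT cells these values were 0, 8.04 and 253 CPM. The genotypes overlapped except for 1 Tnmd-/- cell above every WT cell, and in each genotype 1 cell stood far above the rest. Tnmd-/- cell 9 had 4980 Sox9 counts, 91.3% of the Tnmd-/- sum, and the next cell, cell 10, had 425 counts or 41.2 CPM. WT cell 1 had 1517 counts, 77.0% of the WT sum, followed by cell 5 with 351 counts or 29.2 CPM. Pooled over cells, Sox9 was at 155 CPM for Tnmd-/- against 36.9 CPM for WT. The log2 ratio of Tnmd-/- over WT was 2.07, with a 95% counting interval of 2.00 to 2.15. This interval covers counting error only, as do those of all ratios below, since Smart-Seq2 reads are amplified copies that carry no molecular identifier. The direction rested on the leading cell, since the ratio was -0.95 without Tnmd-/- cell 9 and 4.02 without WT cell 1. It was 0.83 with every cell weighted equally, 1.19 with TMM factors of edgeR and 0.58 with DESeq2 size factors in place of total counts, 4.28 in the less and -4.08 in the more degraded cells.

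Sox5 was seen in 1 cell, Tnmd-/- cell 20, with 251 counts or 37.2 CPM. That cell had 0 Sox9 counts, so no cell held both regulators at 10 counts. The other 5 Tnmd-/- cells had 0 Sox5 counts, and among the WT cells only cells 10 and 14 had any, with 2 and 4 counts. The pooled log2 ratio was 5.99 (4.85 to 7.45), or 3.35 with DESeq2 size factors, and without Tnmd-/- cell 20 the Tnmd-/- sum was 0 counts. Of the Sox5 exon bases, 9.25% are shared with the antisense gene Sox5os1, and since the strand setting of the counting is not given in the sources used here, reads there may belong to either. Sox6 had 0 counts in both sums, which allows up to 0.0855 CPM for Tnmd-/- against 0.0561 CPM for WT at 3 counts per sum.

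Acan was abundant in 2 Tnmd-/- cells and low or absent in most others. Tnmd-/- cells 9 and 10 had 8768 and 10741 counts, or 849 and 1042 CPM, and the remaining 4 Tnmd-/- cells had 0 or 1 count. Among the WT cells, cell 2 had 1130 counts or 234 CPM, cell 10 had 354 counts or 26.0 CPM, cell 4 had 20 counts, and the other 3 had 0 to 6. Both Tnmd-/- cells with Acan thus lay above every WT cell, while the median was lower in the Tnmd-/- cells, at 0.0942 CPM against 1.47 CPM in the WT cells. The pooled level was 556 CPM for Tnmd-/- against 28.3 CPM for WT, a log2 ratio of 4.30 (4.22 to 4.37). Leaving out each cell in turn gave 3.64 to 6.14. Equal weights of cells gave 2.84, TMM factors 2.61 and DESeq2 size factors 2.03. In the more degraded cells alone it was -9.16, since the Tnmd-/- cells of that level had 1 Acan count in all.

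Hapln1 was seen in 1 cell of each genotype, and in both cases in a cell that also had Acan. Tnmd-/- cell 10 had 1930 counts or 187 CPM, 99.8% of its genotype's sum, and WT cell 10 had 1041 counts or 76.5 CPM, 99.9% of its genotype's sum. The only other counts were 4 in Tnmd-/- cell 7 and 1 in WT cell 4. The pooled log2 ratio of 1.50 (1.39 to 1.61) is in effect a ratio of those 2 cells: it was -6.92 without Tnmd-/- cell 10 and 11.10 without WT cell 10, resting then on 4 Tnmd-/- counts and on 1 WT count. With TMM factors it was 0.85. Matn3, which codes for a matrilin that links other matrix proteins into filaments, had 0 counts in all 12 cells, with the same limits as Sox6.

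A combined chondrogenic signature was defined as at least 10 counts of 1 or more of Sox5, Sox6 and Sox9 together with at least 10 counts of 1 or more of Acan, Hapln1 and Matn3. It was held by Tnmd-/- cells 9 and 10 and by WT cell 10. That is 2 of 6 Tnmd-/- cells, with an exact binomial (Clopper-Pearson) interval of 4.33% to 77.7%, and 1 of 6 WT cells, with an interval of 0.421% to 64.1%. These intervals describe 6 picked cells per genotype, do not cover the spread between animals and were not used to compare the genotypes. In all 3 cells the regulator was Sox9 and the matrix gene Acan, and in both cells numbered 10 Hapln1 was added. Tnmd-/- cell 9 had by far the most Sox9 of the 3 and Hapln1 at 0, whereas WT cell 10 was the weakest, with 35 Sox9 and 354 Acan counts. Tnmd-/- cell 10 had 425 Sox9 and 10741 Acan counts. WT cell 1 had more Sox9 than Tnmd-/- cell 10 but 0 Acan counts, and WT cell 2 had more Acan than WT cell 10 with 7 Sox9 counts. Sox9 was seen in 7 and Acan in 5 of the 12 cells, and whether they meet more often than unrelated genes was not tested.

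All 3 cells with the signature were marked as less degraded and were deep, with 10304509 to 13613080 counts. WT cells 4 and 5 were as deep and equally marked, without the signature. The part that depth and degradation have in the signature was not tested. When every cell was thinned to 892713 counts, the signature remained in 2 Tnmd-/- cells, 9 and 10, and in 0 WT cells, and the same numbers were found at a minimum of 50 counts. At a minimum of 1 count it was present in 4 cells of each genotype. With the requirement changed to any 3 of the 8 genes other than Prg4 and Chad, a choice made after seeing the data, 2 cells of each genotype qualified: Tnmd-/- cells 9 and 10 and WT cells 5 and 10.

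**Figure D1:**
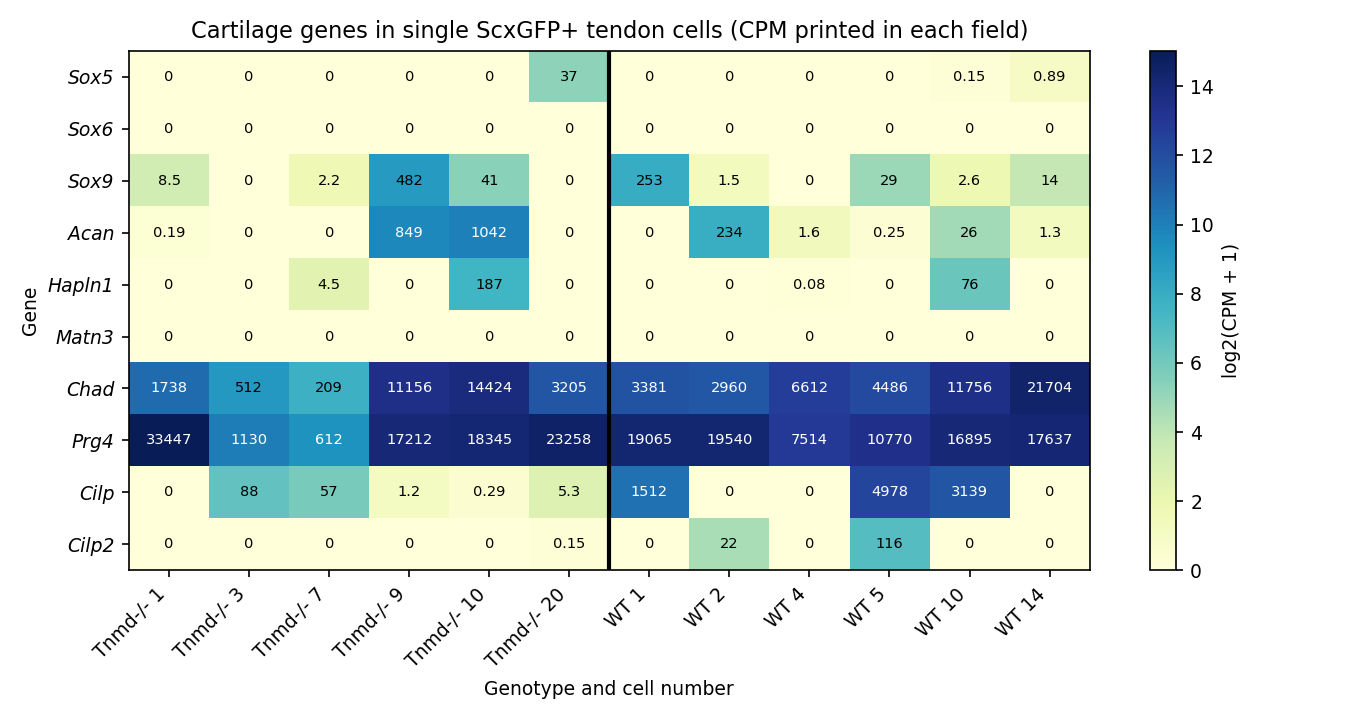
Level of the 10 genes (rows) in each of the 12 cells (columns, Tnmd-/- left of the line and WT right of it); the colour is log2(CPM + 1) and the number in each field is the CPM. Prg4 and Chad fill all columns, Sox9, Acan and Hapln1 overlap in few columns (Tnmd-/- cells 9 and 10 and WT cell 10), and Cilp is at 1512, 4978 and 3139 CPM in WT cells 1, 5 and 10.

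Prg4 and Chad were of another kind: they were seen in all 12 cells of both genotypes. Of the 10123 genes with at least 10 counts in some cell, 213 or 2.1% were seen in all 12, and these 2 were among them. Prg4 codes for lubricin, the glycoprotein that lubricates joint and tendon surfaces. Its lowest value was 612 CPM, its median 17779 CPM and its highest 33447 CPM in the Tnmd-/- cells, and 7514, 17266 and 19540 CPM in the WT cells. The medians were close and the 2 low values belonged to the shallow Tnmd-/- cells 3 and 7, at 1130 and 612 CPM. Outside them Prg4 ranked between 2 and 18 among all genes of a cell and varied 4.45-fold over 10 cells. Over all 12 cells it varied 54.7-fold, and it ranked 114 in cell 3 and 351 in cell 7. Of the Prg4 exon bases, 4.77% are shared with the neighbouring gene Tpr.

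Chad codes for chondroadherin, a leucine-rich repeat protein of the cartilage matrix that binds collagen and cells. Its lowest, median and highest values were 209, 2472 and 14424 CPM in the Tnmd-/- cells and 2960, 5549 and 21704 CPM in the WT cells. Again Tnmd-/- cells 3 and 7 were lowest, at 512 and 209 CPM. Tnmd-/- cell 1, at 1738 CPM, also lay below every WT cell, as did the Tnmd-/- median. Cells 1, 3 and 7 are the Tnmd-/- cells marked more degraded, and the part of degradation was not tested. The other Tnmd-/- cells lay within the WT range. In the Tnmd-/- cells the highest values were in the cells with the signature, 14424 CPM in cell 10 and 11156 CPM in cell 9, ahead of 3205 CPM in cell 20. In the WT cells, cell 14 led with 21704 CPM, followed by cell 10, which held the signature, with 11756 CPM. Chad varied 12.5-fold over the 10 deeper cells and 104-fold over all 12.

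The pooled levels of both genes differed by less than 2-fold between the genotypes. Prg4 was at 20052 CPM for Tnmd-/- against 13873 CPM for WT, a log2 ratio of 0.53 (0.527 to 0.536), and Chad at 8428 and 8028 CPM, a log2 ratio of 0.07 (0.0634 to 0.0769). Without Tnmd-/- cells 3 and 7, an alternative chosen after seeing the data, the ratios were 0.63 and 0.17. The sign depended on the scaling: with size factors of DESeq2 the log2 ratio was -0.41 for Prg4 and -1.41 for Chad, and with factors of edgeR (TMM) it was -0.19 and -0.91. Together the 2 genes made up 97.3% (Tnmd-/-) and 90.9% (WT) of the counts of the 10 genes. Per kilobase of exon, the scale on which genes can be compared, Chad lay above Prg4 in 7 of the 12 cells, 3 of them Tnmd-/- and 4 WT.

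**Figure D2:**
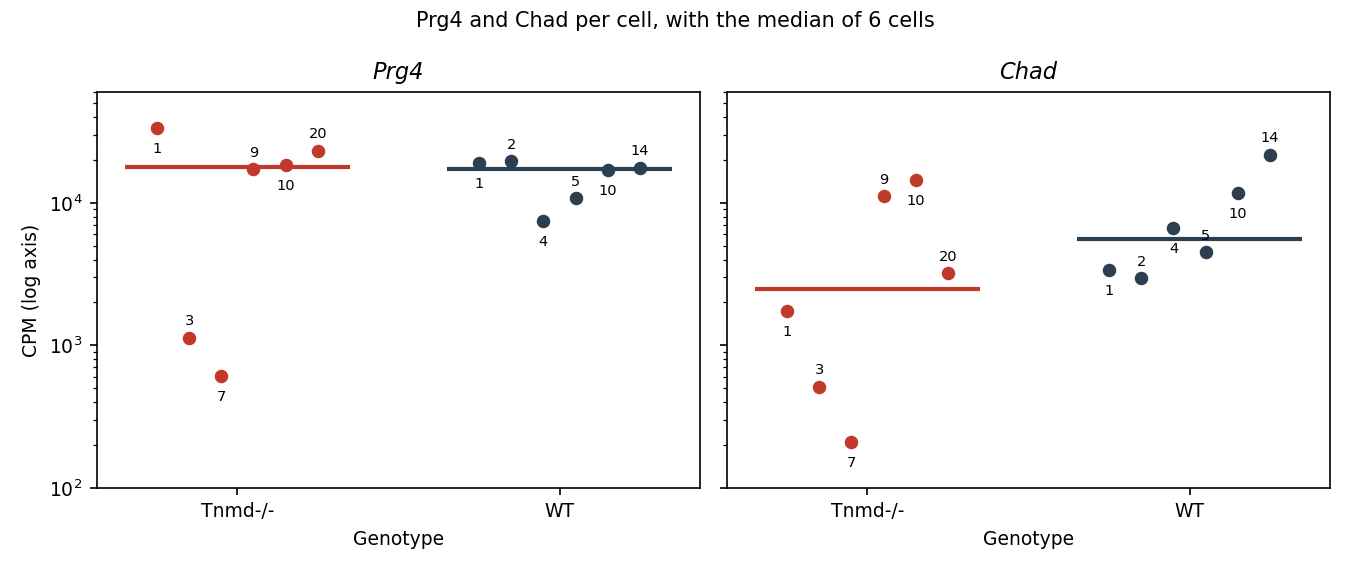
Prg4 (left) and Chad (right) in CPM on a log axis for each cell, numbered, with the median of the 6 cells of a genotype as a line. Tnmd-/- cells 3 and 7 lie far below the other cells for both genes (1130 and 612 CPM of Prg4). For Chad, Tnmd-/- cell 1 (1738 CPM) also lies below every WT cell, and the remaining cells of the genotypes overlap.

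Cilp, which codes for cartilage intermediate layer protein, a matrix protein that binds transforming growth factor beta, was at high level in WT cells only. WT cells 5, 10 and 1 had 4978, 3139 and 1512 CPM, from 59829, 42725 and 9058 counts, and the other 3 WT cells had 0 counts. The Tnmd-/- cells ranged from 0 to 88.4 CPM with a median of 3.25 CPM. The groups overlapped, because 4 Tnmd-/- cells had 12 to 133 counts while 3 WT cells had none, and the highest Tnmd-/- value was in cell 3, with 56.6% of that genotype's 235 counts. The pooled level was 6.70 CPM for Tnmd-/- against 2089 CPM for WT, a log2 ratio of -8.28 (-8.48 to -8.10). Leaving out each cell in turn gave -9.43 to -7.54. The size moved with the weighting and scaling of cells: it was -5.98 with equal weights of cells, -4.35 with TMM factors of edgeR, -2.49 with DESeq2 size factors and -4.63 in the more degraded cells. Within the WT cells the gene was thus either at a high level or at 0, and 0 counts in WT cell 4 compare with a limit of 0.241 CPM at 3 counts.

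Cilp2, the paralog of Cilp, was seen in WT cells 5 and 2, with 1398 and 108 counts or 116 and 22.4 CPM. The other 4 WT cells had 0 counts and the Tnmd-/- cells had 1 count in all, in cell 20. The pooled log2 ratio was -9.95 (-15.25 to -7.47). WT cell 5 held 92.8% of the WT counts, and leaving it out gave -6.52. In the more degraded cells the ratio was -4.18, a bound from 0 Tnmd-/- counts. WT cell 5 was the only cell with both Cilp and Cilp2, and it had more Cilp than any other cell.

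Ordered by pooled CPM per kilobase, the genes ran differently in the 2 genotypes below the top. Chad and Prg4 led in both, with 5016 and 4685 CPM per kilobase for Tnmd-/- and 4778 and 3241 for WT, an order that varied from cell to cell. In the Tnmd-/- cells Acan followed at 74.4, Sox9 at 37.6, Hapln1 at 9.34, Cilp at 1.58 and Sox5 at 0.498. In the WT cells Cilp came next at 491, followed by Sox9 at 8.92, Cilp2 at 6.53, Acan at 3.79 and Hapln1 at 3.30 CPM per kilobase. Each of the latter 4 came mostly from 1 cell, so their order does not exceed the spread between cells.

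By genotype, Sox5, Sox9, Acan and Hapln1 had a pooled level (with 1 CPM added) at least 2-fold higher in the Tnmd-/- cells, Cilp and Cilp2 were at least 2-fold lower, and Chad and Prg4 lay in between. Among all 9768 genes with at least 20 counts, 35.5% were past the same fold in the higher and 34.9% in the lower direction, so differences of this size were common in sums of 6 cells. The 4 and 2 of 8 members are read against that background. With DESeq2 size factors 3 members were higher and 3 lower, beside 36.4% and 32.0% of all genes, and with TMM factors 3 and 2, beside 36.6% and 35.5%. Within the more degraded cells 0 members were higher and 5 lower, beside 29.6% and 25.6% of all genes. Within the less degraded cells the counts were 4 and 2, beside 28.3% and 31.2%. The median log2 ratio of the 8 genes was 0.99, against 0.06 over all genes. Summed over the 10 genes, the level was 29259 CPM for Tnmd-/- against 24102 CPM for WT, a log2 ratio of 0.28 (0.276 to 0.284). Without Prg4 and Chad the sum was 780 and 2202 CPM, a log2 ratio of -1.50, the WT sum being mostly Cilp. The sign of the sum over the 10 genes turned with equal weights of cells (-0.25), with both other scalings (-0.76 and -0.48) and in the more degraded cells (-0.19).

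**Figure D3:**
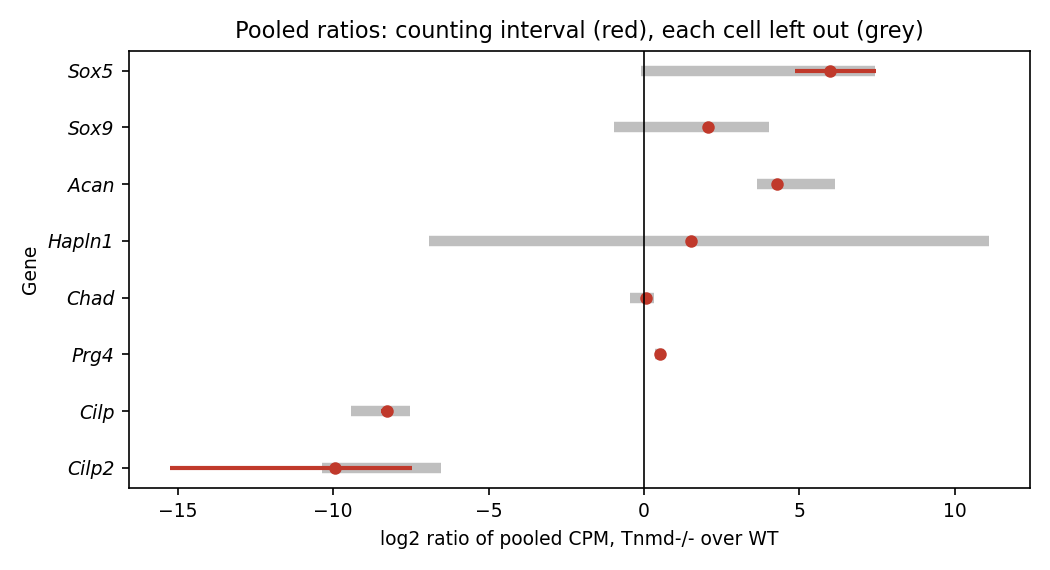
Pooled log2 ratio of CPM, Tnmd-/- over WT, for the 8 genes with counts; points give the ratio, red lines the 95% counting interval and grey bars the range when each cell is left out in turn. The ends of the Hapln1 bar (-6.92 and 11.10) and the left end of the Sox5 bar come from sums of 4, 1 and 0 counts (3 counts stood in for 0), and the Hapln1, Sox9, Sox5 and Chad bars cross 0 while those of Acan, Prg4, Cilp and Cilp2 do not.

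Whether the genes go together was described over pairs. The 8 genes with counts form 28 pairs, and the median share of cells with both genes among cells with either was 0.167, against 0.0833 over all pairs of the 10123 genes. Members with high levels in all cells raise this value, and over the 15 pairs without Prg4 and Chad it was 0.125. In 5 pairs, all without Prg4 and Chad, no cell held both genes: Sox5 with Sox9, Acan, Hapln1 and Cilp2, and Hapln1 with Cilp2. Sox9 and Acan were both seen in 3 of the 9 cells with either, with a Spearman rho of CPM of 0.36 over the 12 cells. In total, Sox9 was seen in 7 cells and Acan in 5. Whether 3 shared cells exceed what these numbers alone would give was not tested. Acan and Hapln1 shared 2 of 5 cells (rho 0.36), and Sox9 and Cilp shared 4 of 10 (rho 0.17). Acan and Cilp shared 2 of 10 cells with a rho of -0.36. These were Tnmd-/- cell 9, with 12 Cilp counts, and WT cell 10, with 42725.

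Acan and Chad had the largest rho of the 28 pairs, 0.67, whereas Chad and Prg4, both seen everywhere, had a rho of 0.08. The order turned on the measure: Pearson's r of log2(CPM + 1) was 0.75 for Chad and Prg4 and 0.50 for Acan and Chad. Chad and Prg4 were both lowest in the shallow Tnmd-/- cells 3 and 7. Over all pairs rho ran from -0.39 to 0.67, with 16 positive and 12 negative. These are descriptions over 12 cells with no p given, and the genes of a pair share each cell's depth and degradation level. At a minimum of 1 count the median overlap was 0.317, against 0.111 for all genes.

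**Figure D4:**
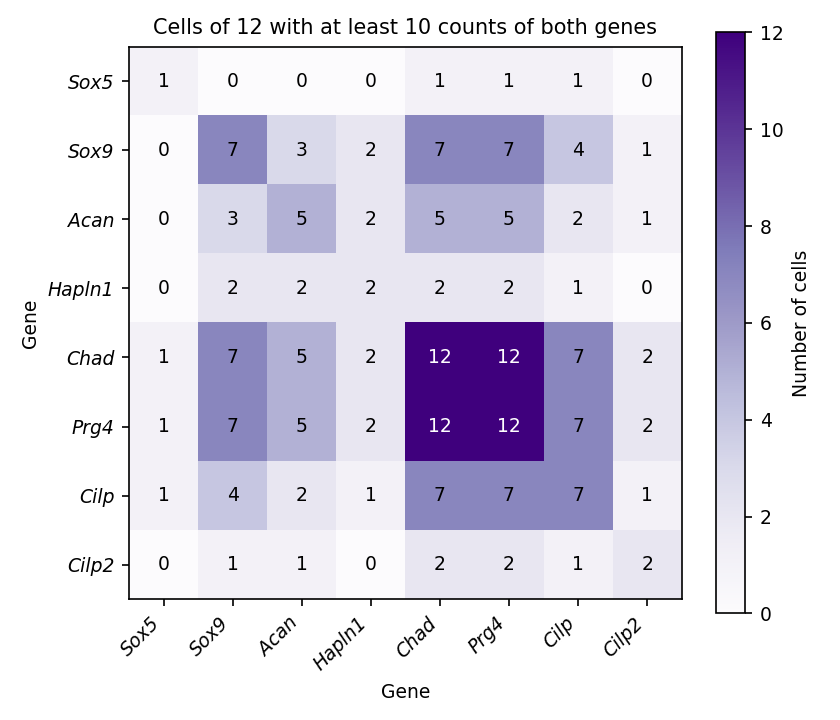
Number of the 12 cells with at least 10 counts of both genes of a pair, with the number of cells for each gene alone on the diagonal. Prg4 and Chad fill all 12 cells, Sox9 and Acan share 3 of 9, Hapln1 lies wholly within the cells of Sox9 and Acan, and Sox5 shares no cell with them.

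Most other genes of cartilage matrix were not detected in these cells, nor were most gene symbols of the count table seen. Of its 55418 symbols, 10123 had at least 10 counts in some cell, as did 2 of the 16 genes listed next. The numbers of genes at 0 in this and the following lists are read beside that share. Of 16 further genes of hyaline cartilage matrix, 11 had 0 counts in every cell: Col2a1, the chain of type II collagen, Col9a1, Col9a2, Col9a3, Col10a1, Col11a2, Matn4, Snorc, Epyc, Cnmd and Mia. This includes the 3 cells with the signature, so Acan in all 3 and Hapln1 in both cells numbered 10 were counted without type II or type IX collagen. Among all genes with at least 20 counts, 35.5% were at least 2-fold higher in the Tnmd-/- cells and 34.9% lower. Of the 2 listed genes with at least 20 counts, 0 were lower at this fold and 1 was higher. This was Ucma, which codes for a secreted protein of cartilage, with 2100 counts in Tnmd-/- cell 10, the cell with the most Acan and Hapln1, and 0 to 3 counts in every other cell (pooled log2 ratio 9.32, 8.10 to 10.95). Comp, coding for cartilage oligomeric matrix protein, a protein also abundant in tendon, was seen in all 12 cells, at 9290 CPM for Tnmd-/- against 9863 CPM for WT (log2 ratio -0.09).

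Of 23 other regulators of chondrogenesis, 14 had 0 counts in every cell, among them Sox8, Nkx3-2, Pax1, Pax9, Ihh and Gli1. Of the 8 with at least 20 counts, 1 was at least 2-fold higher and 4 lower in the Tnmd-/- cells, and 3 (Runx1, Trps1 and Foxc1) lay in between, against the background of 35.5% higher and 34.9% lower over all genes. Bmpr1a, a receptor for bone morphogenetic proteins, was the higher gene, with a log2 ratio of 1.57 (1.37 to 1.78), and 508 of its 563 Tnmd-/- counts came from cell 1, which had 45 Sox9 counts and 1 Acan count. Wwp2, a ubiquitin ligase whose gene hosts a microRNA of cartilage, had 1855 and 2453 counts in WT cells 4 and 10 and 0 to 4 in each other cell (log2 ratio -8.01, -9.01 to -7.17). Runx2, a transcription factor of bone and of maturing chondrocytes, had 1901 of its 1902 counts in WT cell 14, and Gdf5, a ligand of joint formation, had 1179 counts, all in WT cell 5. Both were at 0 in the Tnmd-/- cells, which puts the log2 ratios at -8.70 or lower and -8.01 or lower against 3 counts in the sum. Bmpr1b, named after its values were seen because the count of 4 includes it, was lower by a log2 ratio of -6.02, with 1384 counts in WT cell 14.

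Genes of the hyaluronan aggregate, in which aggrecan is held, were unevenly spread. Of 13 genes 6 had 0 counts everywhere, and of the 7 with at least 20 counts 2 were higher, 2 lower and 3 in between, against the same background. Cd44, a hyaluronan receptor, was seen in all 12 cells, from 15.7 to 2257 CPM. Vcan, coding for versican, which like aggrecan binds hyaluronan, was seen in 5 cells of each genotype and had a log2 ratio of 1.34 (1.31 to 1.36). Has2, a hyaluronan synthase, had 448 counts in Tnmd-/- cell 20 and 99 in WT cell 5 (log2 ratio 2.77), and Has1 had a log2 ratio of -0.91. The hyaluronidase gene Hyal1 had 484 WT counts and 0 Tnmd-/- counts, a log2 ratio of -6.73 or lower, and Hyal2 had a log2 ratio of -1.58 from 1 cell of each genotype.

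Of 9 genes of aggrecan turnover, 6 were at 0 everywhere, including Adamts4, Mmp3 and Mmp13. Adamts5, coding for a main aggrecan-cleaving protease, was at 211 CPM for Tnmd-/- against 843 CPM for WT, with a counting interval of -2.03 to -1.96 for the log2 ratio, and Timp3, coding for an inhibitor of such proteases, was seen in all 12 cells with a log2 ratio of -1.36. Adamts1, a related protease, had a log2 ratio of 3.38 (3.30 to 3.46). Adamts5 had counts in all 12 cells and was highest in WT cells 5 and 4, which lacked the signature, at 22716 and 16670 counts. The cells with the signature had 5583 and 1539 (Tnmd-/- cells 9 and 10) and 5644 counts (WT cell 10). Adamts1 reached 6658 counts in Tnmd-/- cell 9 and 1402 in WT cell 10 but 0 in Tnmd-/- cell 10.

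**Figure D5:**
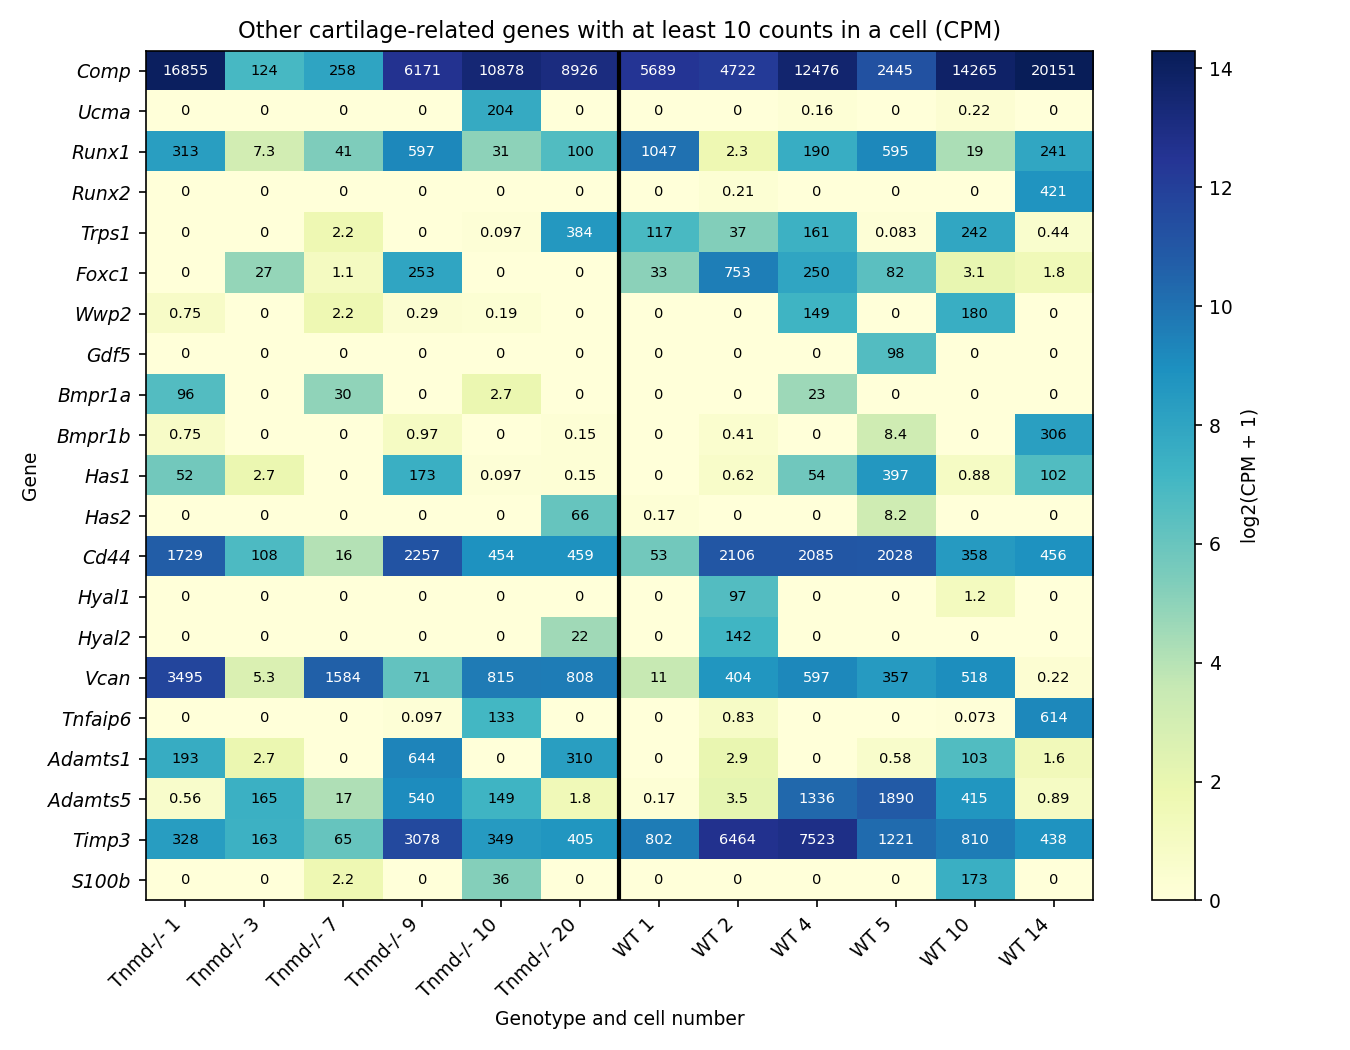
Other cartilage-related genes with at least 10 counts in a cell, and S100b (rows), in each of the 12 cells (columns); the colour is log2(CPM + 1) and the number in each field is the CPM. Comp, Cd44 and Timp3 have counts in all 12 cells, whereas Ucma is at 204 CPM in Tnmd-/- cell 10 alone and Runx2 at 421 CPM in WT cell 14 alone.

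Markers of other cell types were examined beside these results. Of 12 chondrocyte markers, 8 were at 0 in every cell and 3, Sox9, Acan and Hapln1, had at least 20 counts. Their summed level ran from 0 to 1330 CPM in the Tnmd-/- and from 1.68 to 253 CPM in the WT cells, so the cells with the signature are named by these genes and not as chondrocytes. S100b, a calcium-binding protein gene of glia and also of chondrocytes, was seen in Tnmd-/- cell 10 (375 counts) and WT cell 10 (2352 counts), the same cells as Hapln1, and was singled out after its values were seen. The glial markers Sox10 and Ncmap were at 0 in every cell.

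Of 8 osteoblast and osteocyte markers 5, including Sp7, Bglap and Alpl, were at 0 everywhere. Their summed level was 0 in every Tnmd-/- cell and up to 421 CPM in the WT cells, from Runx2 in WT cell 14. Phex had 37 counts, all in WT cell 10, which held the signature. Endothelial, immune, skeletal muscle and adipocyte markers reached at most 31.1, 209, 14.6 and 922 CPM in a Tnmd-/- cell and at most 0.220, 0.160, 0.207 and 0.622 CPM in a WT cell. Cdh5, Ptprc, Ckm and Adipoq, a marker of each type in turn, had 0 counts in all 12 cells. The high values were the endothelial marker Pecam1 with 160 counts and the immune marker Itgam with 1110, both in Tnmd-/- cell 1. In the mitochondria-rich Tnmd-/- cell 3 they were the muscle marker Myh1 with 22 counts and Fabp4 with 1387. Neither of these 2 cells held the signature. Mural markers, mostly Cspg4, ran from 0 to 118 CPM in the Tnmd-/- and from 0 to 641 CPM in the WT cells, the highest being Tnmd-/- cell 9, which held the signature, and WT cell 5, with Rgs5 and Myh11 at 0 in every cell. Of the 12 tendon fibroblast markers 11 had counts. Their sum ran from 1572 to 76585 CPM in the Tnmd-/- and from 25137 to 156773 CPM in the WT cells. Tnmd-/- cell 3 was at the low end. The highest sums were mostly Dcn, at 76582 CPM in Tnmd-/- cell 10 and 133605 CPM in WT cell 14. Tnmd-/- cell 7, which had the lowest Prg4 and Chad, had a tendon marker sum of 19388 CPM, above the 9607 CPM of Tnmd-/- cell 1, which had the highest Prg4. Scx was seen together with Sox9 in 2 cells, WT cells 1 and 10, and with Acan in 2, WT cells 4 and 10.

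For each gene seen in at least 3 cells, the genes most like it over the 12 cells were listed by Pearson's r of log2(CPM + 1), among 4244 genes that were also seen in at least 3 cells. Most like Sox9 were Ncaph2 (r = 0.93), Leo1 (0.89) and the pseudogene Gpx4-ps2 (0.88), whose counts are uncertain because it shares sequence with its parent gene. Most like Acan were Clba1 (0.95), Ndufs8 (0.92) and Hexim1 (0.92), and most like Cilp were Cir1 (0.93), Dio2 (0.91) and Mtrr (0.88). Chad was most like Cst3 (0.94), Anxa1 (0.90) and Rpl10a (0.90), and Prg4 was most like the ribosomal protein genes Rpl27a (0.98) and Rps3 (0.96). All 5 genes listed for Chad and Prg4 were lower in both shallow Tnmd-/- cells, 3 and 7, than in any of the other 10 cells. No member appeared among the genes most like another.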

How the data were processed

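Single cells were sequenced after Smart-Seq2 amplification, which uses no molecular identifiers. The authors trimmed reads, kept those mapping exclusively to mouse, aligned them to GRCm38 (Ensembl 96) and deposited raw counts of uniquely mapped exonic reads per gene and cell, together with the exon length. The submitters' processing notes name FastQC 0.11.9, MultiQC 1.9, STAR 2.5.1b and featureCounts of Subread 2.0.0. Depth was 892713 to 13613080 counts per cell.

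Counts were scaled to CPM per cell or per summed genotype. No 2 of the 66 cell pairs had identical counts. Poisson and Clopper-Pearson intervals (95%) of counts and ratios cover counting error only. The Clopper-Pearson intervals of cells with the signature describe 6 picked cells and not the spread between animals. No test of the genotypes was made because each genotype was taken as 1 sample, as no cell is tied to an animal. A sum of 0 was replaced by 3 counts, giving a bound. With at most 3 counts in both sums, no ratio was given. A gene was seen in a cell at 10 counts, and folds over all genes used those with at least 20 counts and 1 CPM added. The degradation level of each cell was read from the annotation bar of the authors' heat map, since the labels do not hold it. Gene models were those of GENCODE M21, whose exon lengths matched for all members. Named are the 10 members, Tnmd and Scx, up to 3 genes per pathway list and direction, and the 3 genes most like each member in at least 3 cells. Marker genes are named beside their lists. Some genes that these rules or lists include are not reported here. Members and lists were chosen with earlier results of these data known. Alternatives were other scalings (DESeq2 1.42.0, edgeR 4.0.16), weights, minimum counts, thinning, degradation levels and leaving out cells. Scripts used Python 3.11.15, pandas 2.3.3, scipy 1.17.1 and R 4.3.3, and were tested on simulated counts.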

Additional observations from a re-analysis of the deposited data

Results flagged for a closer look

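Of 15 groups of 6 cells with more than 3 counts of a gene in some cell, 8 had a highest cell whose gap to the next relative to the whole range was past the 95% limit of Dixon's test for 6 values. Chance would flag at most about 1 in 20 groups if values were normally distributed, which sparse counts of single cells are not. Where all other cells of a group are at or near 0, as for Hapln1, a flag follows from that alone. The limit served only to describe which cells stood out. The cells were Tnmd-/- cell 20 for Sox5 (37.2 CPM, next cell 0), WT cell 14 for Sox5 (0.886 CPM, from 4 counts), Tnmd-/- cell 9 for Sox9 (482 CPM, next 41.2), WT cell 1 for Sox9 (253 CPM, next 29.2), WT cell 2 for Acan (234 CPM, next 26.0), Tnmd-/- cell 10 for Hapln1 (187 CPM, next 4.48), WT cell 10 for Hapln1 (76.5 CPM, next 0.0802) and WT cell 5 for Cilp2 (116 CPM, next 22.4). These were 8 different cells, with WT cell 10 and Tnmd-/- cell 10 standing out for the same gene. Prg4, Chad and Cilp had no cell past the limit in either genotype.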

How the results depend on the processing

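The log2 ratio of the summed genes, 0.28, was -0.25 with equal weights of cells, -0.76 with DESeq2 size factors, -0.48 with TMM factors, 0.25 with totals without mitochondrial and the top 50 genes, 0.44 in the less and -0.19 in the more degraded cells, 0.20 per kilobase, and 0.11 to 0.45 when each cell was left out. The cause of the reversals was not tested. The signature, in 2 Tnmd-/- and 1 WT cells, was in 4 and 4 at 1 count, in 6 and 6 when any 3 of the 10 genes sufficed, in 0 WT cells at 50 counts and after thinning, in 2 WT cells with any 3 of 8 genes, and in 1 to 2 Tnmd-/- and 0 to 1 WT cells when each cell was left out. In the more degraded cells 0 members were higher and 5 lower, beside 29.6% and 25.6% of all genes. With all cells these were 4 and 2, beside 35.5% and 34.9%. Leaving out each cell gave 3 to 4 higher, beside 31.1% to 37.7% of all genes, and 2 to 3 lower, beside 30.6% to 37.9%. Leaving out the 2 shallowest cells, chosen after seeing the data, gave 4 and 2, beside 31.2% and 35.9%. The median overlap of pairs, 0.167, was 0.317 at 1 count and 0.162 to 0.286 when each cell was left out.

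Reversed single genes were Sox9 (-4.08) and Acan (-9.16) in the more degraded cells, Chad with equal weights (-0.70), DESeq2 (-1.41), TMM (-0.91) and in the more degraded cells (-2.71), and Prg4 with DESeq2 (-0.41) and TMM (-0.19). Leaving out each cell gave -0.0852 (a bound from a sum of 0 counts) to 7.45 for Sox5, -0.95 to 4.02 for Sox9, -6.92 to 11.10 for Hapln1 and -0.44 to 0.32 for Chad. No paired analysis was possible because the numbers only name picked cells, and no comparison of the genotypes comes from a test. With 6 cells per genotype, taken as 1 sample because no cell is tied to a tendon or animal, the spread between animals is unknown. Depth limits what a count of 0 can show.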

Other observations

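WT cell 14, the only cell with Tnmd at 10 counts or more (2254 CPM), held no Acan, Hapln1 or Cilp at that level, but it had the highest Chad of all cells (21704 CPM) and the highest Comp (20151 CPM). It was also the cell with the highest Runx2 (421 CPM), Bmpr1b (306 CPM) and Tnfaip6 (614 CPM). WT cell 5, with the highest Cilp (4978 CPM) and Cilp2 (116 CPM), was the only cell with Gdf5 (98.1 CPM) and had the highest Has1 (397 CPM) and Adamts5 (1890 CPM). These cells were singled out after their values were seen, and each set of values rests on 1 cell.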
